A study of Mus musculus with 17 samples.

Results

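The 10 genes described here encode 9 lysosomal cathepsins (Ctsa, Ctsb, Ctsc, Ctsd, Ctsh, Ctsk, Ctsl, Ctss and Ctsz) and prosaposin (Psap). They were taken by symbol from 21883 protein-coding genes, and each was measured by the RNA polymerase II summits that lay between 1 kb before and 1 kb after its annotated span. Polymerase had been immunoprecipitated from mouse bone marrow-derived macrophages that were wild type (WT) or N4bp1 knockout (KO), left untreated or given R837 for 2, 4 or 6 h, with 2 libraries in each of the 8 groups. R837 (imiquimod) is a small-molecule agonist of the endosomal receptor TLR7, and N4BP1 is an inhibitor of inflammatory signalling downstream of such receptors. The labels give no strain, age, sex, dose, knockout allele or number of animals, and do not say whether the 2 libraries of a group came from separate cultures, so p-values measure the spread between libraries only, which may be technical. The comparison of treated with untreated cells had been used to choose the genes, and its values are given below as a description without a test. Ctsd in particular had been noted for its low position at 2 h.

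Cathepsins are the main proteases of the lysosome. Most are cysteine proteases (B, C, H, K, L, S and Z), cathepsin D is an aspartic protease and cathepsin A is a serine carboxypeptidase. Prosaposin is cut in the lysosome, largely by cathepsin D, into the saposins, small proteins that present sphingolipids to their hydrolases. In macrophages these enzymes degrade engulfed material, and cathepsins B, L and S also trim endosomal TLRs and antigens. Many lysosomal genes carry the CACGTG core of the CLEAR element, which is bound by TFEB and TFE3.

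Each deposited list gave the position and the score of 1 summit per called peak, with 8394 to 29760 summits per library. The score is a −log10 significance value that rises with read depth, and the depth is unknown, so genes were compared by the rank of their best summit. Only the top 8394 summits of a library were kept, as many as the shortest list holds. The rank score is log2 of 8395 divided by the rank of the best summit, so that 1 unit is a 2-fold difference in rank, 13.04 is the highest possible value and 0 means no summit among the 8394 best. A rank is relative to all other summits of its library, and a peak that spans a whole gene still gives only 1 summit. Fewer cells with polymerase on a gene and less polymerase per cell cannot be told apart. The untreated and 2 h libraries shared a code in their peak names, those at 6 h had a code of their own, and those at 4 h had a different one in WT and in KO. Time after 2 h, and genotype at 4 h, therefore cannot be told apart from whatever these codes stand for. KO 6 h replicate 2 stood apart, with a highest score of 563.5 where no other library exceeded 320.4. Of 10 macrophage markers, 7 had a summit in all 16 deposited lists, whereas the 5 fibroblast markers and the 4 mast cell and basophil markers had none. Of other markers, Xcr1 of dendritic cells had a summit in all 16 lists and Cd3d of T cells in 11, while 3 of 6 dendritic cell and 5 of 7 T and NK cell markers had none. Osteoclasts also use cathepsin K. Of 8 osteoclast markers, Atp6v0d2 had a summit in all 4 untreated and 2 treated lists, Mmp9 in 1 and 6 and Acp5 in 1 and 2, and the other 5 (Calcr, Oscar, Dcstamp, Ocstamp and Itgb3) had none in any list. The part of such cells in the results was not tested.

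In untreated macrophages the polymerase summits of Ctsd and Psap stood among the 41 highest of the genome, and after R837 they lost that place in every library. Ctsd (chr7:142375910-142387827, minus strand) encodes cathepsin D. Its best summit ranked 16 and 16 in the untreated WT libraries and 23 and 24 in the untreated KO libraries. At 2 h it ranked 7769 and 5668 in WT and 2128 and 4235 in KO. It ranked 1151 and 907 in WT and 1869 and 2018 in KO at 4 h, and 593 and 450 in WT and 379 and 466 in KO at 6 h. All 4 untreated libraries thus lay above all 12 treated ones, and among treated libraries the 4 at 6 h held the 4 best ranks. The mean rank score was 8.76 ± 0.32 (SD, n = 4) in untreated and 2.55 ± 1.49 (SD, n = 12) in treated libraries, a difference of −6.21. Within the shared code series, the difference between 2 h and untreated libraries was −7.85. The median difference over the 8473 genes tested was −0.33 for all R837 times together and −0.40 at 2 h.

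Psap (chr10:60277628-60302600, plus strand) had the other untreated summit of this height. It ranked 27 and 41 in untreated WT and 16 and 14 in untreated KO libraries. At 2 h the ranks were 1079 and 2038 in WT and 2256 and 1466 in KO, and at 4 h they were 331 and 543 in WT and 974 and 819 in KO. At 6 h they were 642 and 929 in WT and 2438 and 2855 in KO. The groups did not overlap, and the rank score differed by −5.66 between treated and untreated libraries, from 8.56 ± 0.71 (SD, n = 4) to 2.89 ± 0.96 (SD, n = 12). Unlike that of Ctsd, the summit of Psap kept its place within the gene: the best summit lay 111 to 277 bases after the gene start in all 16 libraries.

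The 250 bases before the first listed start are shown for Ctsd and Psap, whose summits ranked highest in untreated cells, and for Ctsz, a cathepsin whose rank moved the other way. They are from RefSeq (GRCm38.p6), each written 5′ to 3′ on the strand of the gene and ending at the base before the start, with capitals marking CACGTG.
Ctsd chr7:142387828-142388077 (minus strand): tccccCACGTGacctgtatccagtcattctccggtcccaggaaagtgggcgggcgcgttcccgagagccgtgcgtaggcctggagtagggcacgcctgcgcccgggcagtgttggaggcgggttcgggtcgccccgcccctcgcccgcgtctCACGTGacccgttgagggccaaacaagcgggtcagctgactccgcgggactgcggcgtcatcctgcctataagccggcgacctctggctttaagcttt
Psap chr10:60277378-60277627 (plus strand): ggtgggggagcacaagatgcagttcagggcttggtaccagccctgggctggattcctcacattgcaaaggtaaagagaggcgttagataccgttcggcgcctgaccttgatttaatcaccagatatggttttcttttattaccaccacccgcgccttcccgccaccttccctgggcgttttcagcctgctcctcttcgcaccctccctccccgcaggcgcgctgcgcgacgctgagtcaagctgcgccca
Ctsz chr2:174439040-174439289 (minus strand): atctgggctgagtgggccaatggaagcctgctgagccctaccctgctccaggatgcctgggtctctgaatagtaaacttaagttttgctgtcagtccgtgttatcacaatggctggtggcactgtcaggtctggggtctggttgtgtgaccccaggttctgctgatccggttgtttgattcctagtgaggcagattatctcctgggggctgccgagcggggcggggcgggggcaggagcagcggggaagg
Ctsd held CACGTG at 2 places, beginning 245 and 98 bases before its start, and Psap and Ctsz held none.

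**Figure D1:**
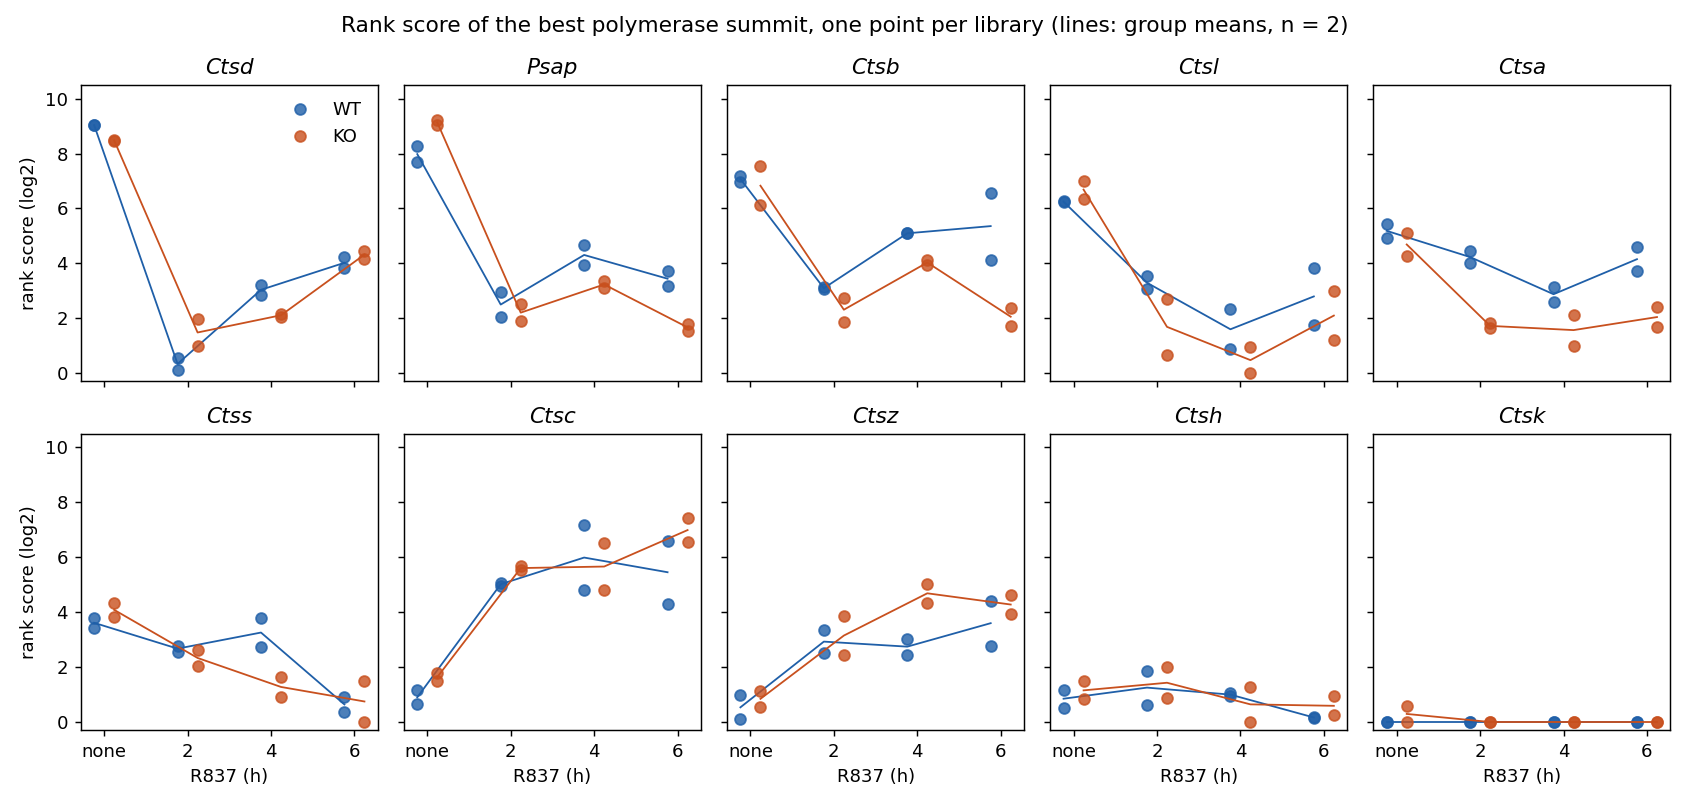
Rank score (log2 scale, vertical axis) of the best polymerase summit of each of the 10 genes in untreated cells and 2, 4 and 6 h after R837 (horizontal axis), with WT in blue and KO in orange. Each point is 1 library and lines join the means of 2 libraries; Ctsd and Psap start above 7.5 and are below 5 in all treated libraries, and Ctsc and Ctsz run the other way.

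Ctsl and Ctsb, the cysteine proteases cathepsin L and cathepsin B, also lost rank, and started from lower positions. Ctsl (chr13:64361890-64370772, minus strand) ranked 112 and 109 in WT and 102 and 65 in KO without treatment. In the 12 treated libraries its best rank was 589, its median rank 2072 and its worst rank 12961, so untreated and treated libraries did not overlap. Its rank score differed by −4.47 over all times and by −3.98 at 2 h. Ctsb (chr14:63122462-63145923) ranked 58 and 67 in WT and 45 and 121 in KO without treatment. Treated libraries ranged from 88 to 2535 with a median of 755, and the 1 at rank 88, WT 6 h replicate 2, overlapped the untreated range. The rank score of Ctsb differed by −3.29. Its best summit lay in the region it shares with Fdft1, the gene of squalene synthase, in 11 of 16 libraries, and these lists cannot divide a summit between them, so Ctsb is reported as uncertain. With the summits that lie in a single gene region alone, a setting added after its value was seen, the difference was −3.18.

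Ctsa and Ctss lost less rank. Ctsa (chr2:164832872-164841032, plus strand) encodes cathepsin A, the protective protein of the lysosomal galactosidase and neuraminidase. It ranked 195 and 273 in WT and 243 and 436 in KO without treatment. After R837 its rank ran from 351 to 4183 with a median of 1476.5, and the difference in rank score was −2.17. WT 2 h replicate 2 and WT 6 h replicate 2, at 383 and 351, fell within the untreated range. Ctss (chr3:95526786-95556405, plus strand) encodes cathepsin S, which cuts the invariant chain of MHC class II. It ranked 607 and 776 in WT and 417 and 587 in KO without treatment, and from 609 to 11124 with a median of 2386 after R837. Its difference in rank score was −2.03, and WT 4 h replicate 1, at 609, overlapped the untreated range.

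Ctsc and Ctsz gained rank. Ctsc (chr7:88278024-88315861, plus strand) encodes cathepsin C, the dipeptidyl peptidase that activates the serine proteases of granules. It ranked 3768 and 5374 in untreated WT and 3011 and 2420 in untreated KO libraries. At 2 h the ranks were already 250 and 268 in WT and 180 and 165 in KO. The best rank of any treated library was 49 and the worst 426, so every treated library lay above every untreated one. The mean rank score went from 1.27 ± 0.49 (SD, n = 4) to 5.79 ± 1.04 (SD, n = 12), a difference of 4.52. Ctsz (chr2:174427494-174439039, minus strand), the carboxypeptidase cathepsin Z, ranked 4287 and 7834 in WT and 3847 and 5687 in KO without treatment. After R837 it ranked from 257 to 1556 with a median of 699, again without overlap, and its rank score differed by 2.88. Its best summit was shared with Nelfcd in 2 of 4 untreated and 1 of 12 treated libraries.

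Ctsh and Ctsk had low summits throughout. Ctsh (chr9:90054267-90076095), the aminopeptidase cathepsin H, ranked between 3014 and 5849 in untreated and between 2102 and 8749 in treated libraries. Its difference of −0.15 was smaller than the spread between untreated libraries (SD 0.42, n = 4), and its sign changed between alternative settings. Ctsk (chr3:95499210-95509387, plus strand), the collagen-degrading cathepsin K, had a summit in all 4 untreated lists as deposited, at ranks 13406 and 16282 in WT and 5586 and 8867 in KO. It had a summit in 3 of 12 treated lists, at ranks 13874, 20888 and 24656. Ctsk reached the 8394 best in 1 library and so was left out of all tests, which cover 9 of the 10 genes.

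Counted over the group, all untreated libraries stood above all treated ones for Ctsd, Psap and Ctsl, 3 of the 9 genes, and all treated above all untreated ones for Ctsc and Ctsz, 2 of 9. Over all genes tested those shares were 8.25% and 2.05%. As the genes were chosen on this comparison, nothing is read from the shares. The median difference of the 9 genes was −2.17, beside −0.33 over all genes. In both genotypes taken alone, each at the 3 times, the differences kept their sign for all of Ctsd, Psap, Ctsl, Ctsb, Ctsa and Ctss (negative) and for Ctsc and Ctsz (positive). The 3 times share their untreated libraries. For Ctsd, for instance, the difference was −8.70 in WT and −7.00 in KO at 2 h and −5.01 in WT and −4.16 in KO at 6 h, and for Ctsc it was 4.12 in WT and 3.97 in KO at 2 h.

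The number of summits moved differently from the rank. Ctsd had 1 summit in each of the 4 untreated lists as deposited and 3 to 14 after R837. All 4 of its untreated summits lay within 1 kb of the gene start, compared with 18.0% of the 111 summits of treated libraries, the others being spread along the gene. Ctsl likewise had 1 summit in every untreated list and 1 to 8 after R837, and Ctsb 2 in every untreated list and 7 to 20 after R837. On the scale of log2(number of summits + 1) the differences were therefore positive for Ctsd (2.23), Ctsb (2.09), Ctsl (1.10) and Ctsa (0.99), opposite in sign to their rank scores. Psap had 5 to 8 summits in untreated and 2 to 19 in treated libraries, a difference of −0.0017 on that scale. This mean joins fewer summits at 2 h (3 and 3 in WT, 2 and 2 in KO) with mostly more later. At 4 h there were 11 and 13 in WT and 7 and 12 in KO, and at 6 h 19 and 15 in WT and 5 and 11 in KO. Each called peak gives 1 summit whatever its width, and peak widths were not analysed here.

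For Ctss and Ctsc both measures moved the same way. Ctss had 21 to 31 summits along its length in untreated libraries and 2 to 10 after R837. Of its 101 untreated summits only 4, 1 per library, lay within 1 kb of the start, and the rest covered the gene body. Ctsc was the reverse case, with 1 or 2 summits in untreated and 8 to 35 in treated libraries. In treated libraries 212 of its 228 summits lay farther than 1 kb from the listed start, although the best summit stayed within 1 kb of it in 11 of 12. In the map of summits the gene bodies of Ctss and Ctsc exchange their appearance between untreated and treated libraries.

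**Figure D2:**
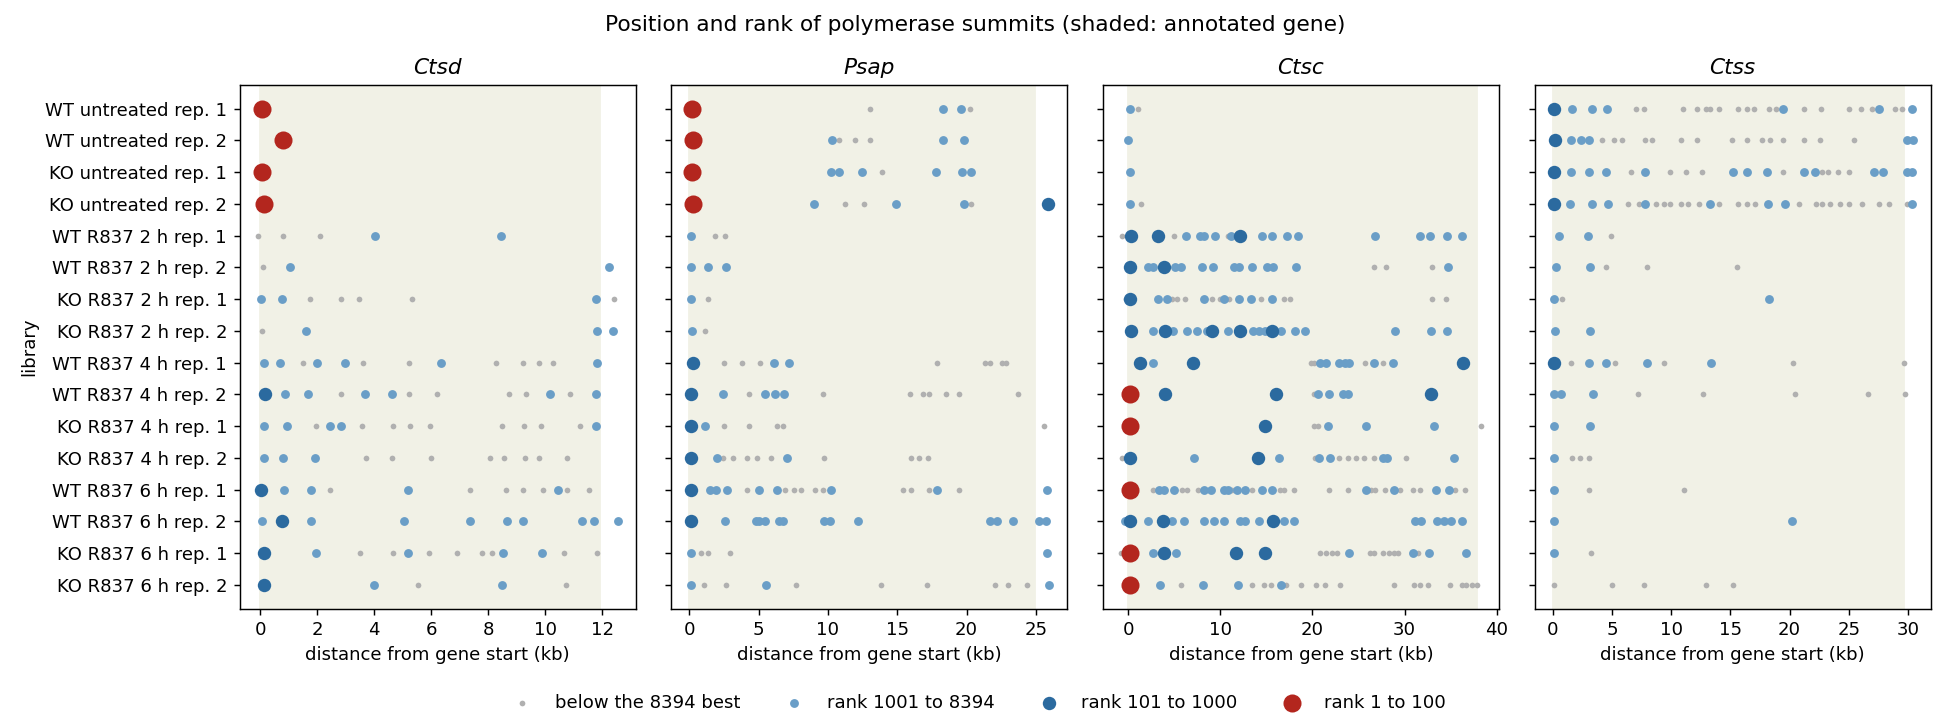
Positions of all deposited summits (horizontal axis, kb from the gene start) in Ctsd, Psap, Ctsc and Ctss, 1 row per library (vertical axis); size and colour give the rank of the summit within its library, red being rank 1 to 100, and shading marks the annotated gene. Untreated libraries hold 1 red summit at the start of Ctsd and of Psap, a filled gene body in Ctss and an almost empty one in Ctsc.

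**Figure D3:**
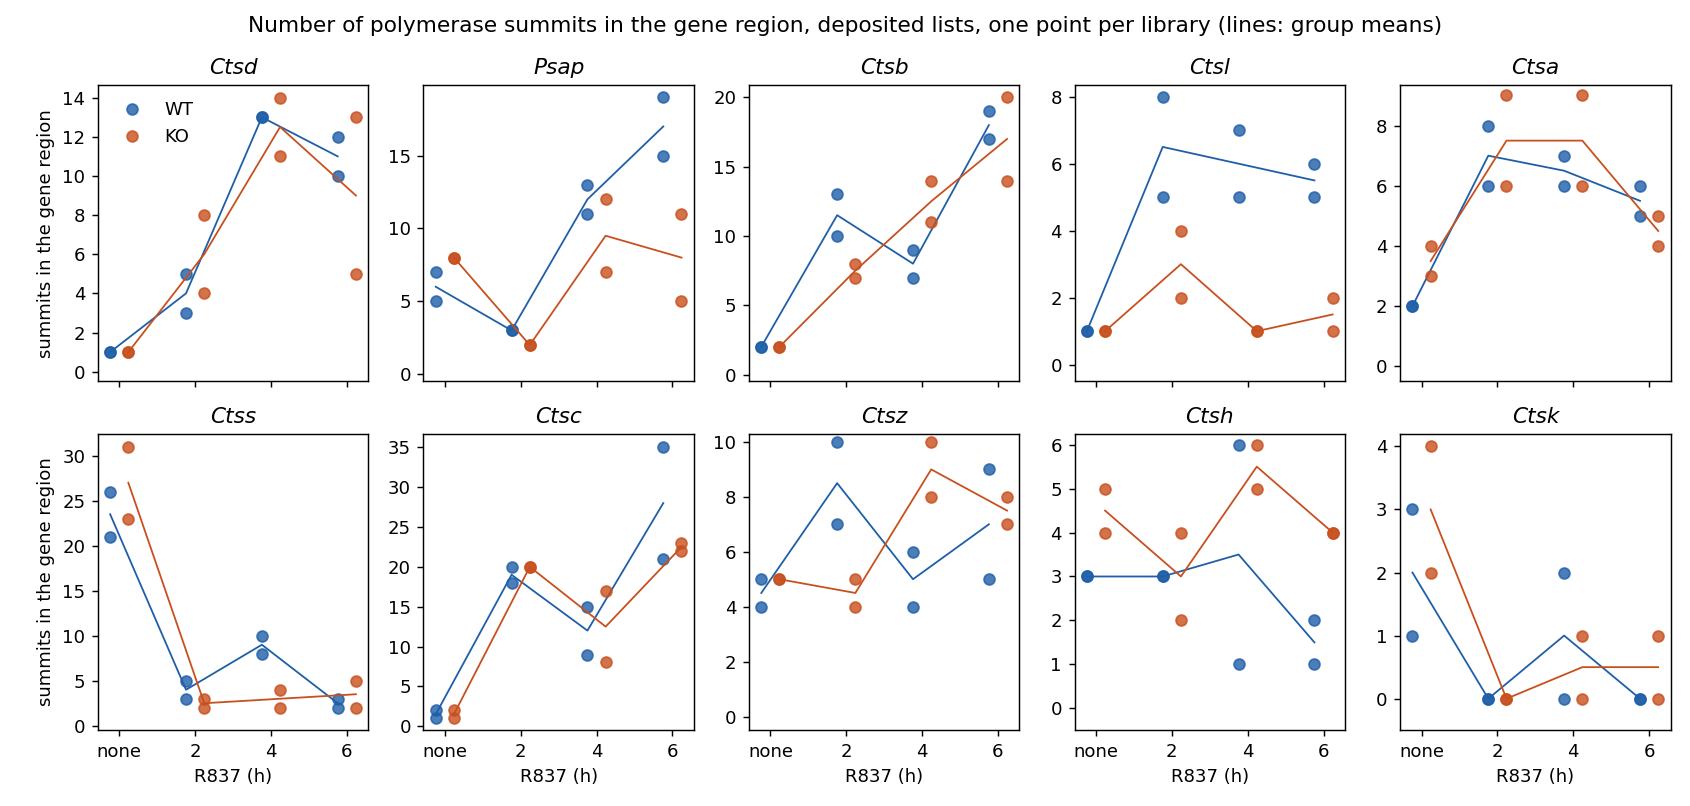
Number of summits in the gene region in the deposited lists (vertical axis, its range differs between panels) against R837 time (horizontal axis), 1 point per library with lines through the means of 2. Ctsd, Ctsb and Ctsc have more summits in every treated library than in any untreated one, Ctss has fewer, and treated WT libraries have more in Ctsl than treated KO libraries.

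Ctsa shows how position bears on such values. In untreated libraries its best summit lay 3793 to 5488 bases into the gene, and in 7 of 12 treated libraries it lay within 1 kb of a listed start, at 968 to 1619 bases from the start of the gene, where a second start is listed 901 bases in. That position is within 1 kb of Neurl2, so the summit is counted for both genes. When only summits within 1 kb of the start of the gene span were used, the difference of Ctsa after R837 became 0.86, opposite in sign to −2.17. That window ends 1 kb into the gene and so cuts between the summits at 968 to 1619 bases. The value is therefore not a measure at the second listed start.

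The later course after R837 was read by comparing the 4 libraries at 6 h with the 4 at 2 h. Ctsd had been noted for its 2 h values, so its difference is given as a description without a test. Its rank score differed by 3.26 between 6 h and 2 h, and all 4 libraries at 6 h lay above all 4 at 2 h. Its mean rank score in WT was 0.34 ± 0.32 at 2 h, 3.04 ± 0.24 at 4 h and 4.02 ± 0.28 at 6 h (SD, n = 2 each), and in KO 1.48 ± 0.70, 2.11 ± 0.08 and 4.32 ± 0.21. At 6 h it was still below every untreated library. In counts of summits the difference of Ctsd was 0.87. Of the 8 other genes tested, Ctss was lower at 6 h by −1.81 ± 0.44 (SE; adjusted p = 0.0216, limma over 8473 genes). Its 4 libraries at 2 h ranked 1420, 1222, 1354 and 2052, and those at 6 h 6457, 4496, 2978 and 11124, without overlap. Ctss was the 1 of these 8 genes to pass, where 4.38% of all genes rose and 3.93% fell, 8.31% in all. The call of Ctss was lost without any of 5 libraries (adjusted p = 0.0534 without WT 2 h replicate 1, 0.075 without WT 2 h replicate 2, 0.0711 without KO 2 h replicate 1, 0.0738 without WT 6 h replicate 1 and 0.077 without KO 6 h replicate 2). It was also lost with lists as deposited (−1.26, adjusted p = 0.129), within 1 kb of starts (−1.65, adjusted p = 0.0707), with only the compared groups in the fit (adjusted p = 0.0796) and in counts of summits (−0.10, adjusted p = 0.896). The other 7 genes did not pass; Psap differed by 0.20 (95% interval −0.66 to 1.06) and Ctsl by −0.04 (−1.41 to 1.32). The 2 h and 6 h libraries differ in code series.

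N4bp1 KO and WT macrophages were then compared at each time. None of the 9 genes passed in untreated cells or at 2, 4 or 6 h by limma, where 1.37%, 0.0708%, 0.401% and 1.32% of all genes did. At an unadjusted p under 0.05 the counts were 0, 2, 3 and 3 of 9, beside 10.6%, 5.16%, 7.09% and 13.2% of all genes. In untreated cells both KO libraries lay above both WT libraries for 4 of 9 genes and below for 1 of 9, where 14.8% and 13.7% of all genes did. Ctsd was at ranks 16 and 16 in WT beside 23 and 24 in KO, a difference of −0.55 in rank score. Psap was at 27 and 41 in WT beside 16 and 14 in KO, a difference of 1.15. The intervals were wider than these differences (for Psap −0.06 to 2.37 and for Ctsd −1.69 to 0.58). Differences of this size were thus not detectable with 2 libraries a group.

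After R837 the differences between KO and WT ran in both directions, and none passed the test at any single time. With an unadjusted p under 0.05, Ctsa was lower in KO at all 3 times, Ctss at 4 h and Ctsb and Psap at 6 h, while Ctsd was higher at 2 h and Ctsz at 4 h. Ctsa ranked 522 and 383 in WT and 2703 and 2389 in KO at 2 h, 950 and 1374 in WT and 1910 and 4183 in KO at 4 h, and 634 and 351 in WT and 2619 and 1579 in KO at 6 h. Both KO libraries lay below both WT libraries at each time, with differences in rank score of −2.51, −1.31 and −2.11, none of which passed (adjusted p = 0.253, 0.702 and 0.119, limma). Within 1 kb of gene starts the sign turned at 2 h (1.05) and 4 h (0.16), and in counts of summits at the same times (0.076 and 0.16). For Ctsa the 1 kb window ends among the summits near its second listed start, so these signs depend on the edge of the window. The best summit of Ctsa was the one shared with Neurl2 in 5 of the 6 treated KO and 2 of the 6 treated WT libraries. In the other treated KO library, KO 2 h replicate 2, it was shared with Pltp. No treated KO value of Ctsa thus came from a summit in Ctsa alone, and its difference between genotypes is reported as uncertain. Ctsb ranked 476 and 88 in WT and 1603 and 2535 in KO at 6 h, a difference of −3.30 ± 0.76 (SE; adjusted p = 0.0566, limma), and its KO libraries were below WT without overlap at all 3 times. With summits of a single gene region the difference of Ctsb at 6 h was −1.99 (adjusted p = 0.265, limma). Psap at 6 h differed by −1.77 ± 0.56 (SE; adjusted p = 0.166, limma), with ranks of 642 and 929 in WT and 2438 and 2855 in KO. Ctss at 4 h differed by −1.98 ± 0.62 (SE; adjusted p = 0.349, limma). In the other direction, Ctsz ranked 1022 and 1535 in WT and 257 and 413 in KO at 4 h, a difference of 1.94 ± 0.71 (SE; adjusted p = 0.499, limma) that became −2.74 within 1 kb of gene starts. The best KO summits of Ctsz at 4 h lay 1023 and 1019 bases from the start, just outside that window. The best WT ones lay 261 and 192 bases from it, so the change of sign depends on the edge of the window. Ctsd at 2 h differed by 1.14 ± 0.53 (SE; adjusted p = 0.957, limma). Both KO libraries were below both WT libraries for 3, 5 and 3 of the 9 genes at 2, 4 and 6 h, where 7.15%, 8.45% and 4.67% of all genes were. The opposite order was seen for 2, 1 and 1 of 9, where 10.1%, 16.5% and 22.6% of all genes had it. At 6 h the median difference over all genes was 0.13.

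A comparison of KO with WT over the 3 R837 times together was added after these values had been seen. Ctsa was lower in KO by −1.97 ± 0.35 (SE; adjusted p = 0.0249, limma), 1 of 9 genes to pass, beside 0.744% of all genes. With only the summits that lie in a single gene region the difference was −3.08 (adjusted p = 7.3e-04, limma). That setting removes the best summit of Ctsa in every treated KO library, where it was shared with a neighbouring gene, while most treated WT libraries keep theirs. A larger difference is thus built in, and nothing is read from it. The call was lost without any of 5 libraries (adjusted p = 0.062 without WT 2 h replicate 1, 0.083 without WT 2 h replicate 2, 0.0699 without KO 2 h replicate 1, 0.0687 without WT 4 h replicate 1 and 0.0565 without WT 6 h replicate 2). It did not pass with lists as deposited (−1.42, adjusted p = 0.0702) or when the untreated groups were left out of the fit (adjusted p = 0.0724). It was also absent within 1 kb of gene starts (−0.22, adjusted p = 0.989) and in counts of summits (−0.0019, adjusted p = 1.0). The window of 1 kb is set at the start of the gene span and ends among the summits near the second listed start of Ctsa. It therefore does not show whether the genotypes differ at that start. Ctsb differed by −1.72 (adjusted p = 0.109), Psap by −1.05 (adjusted p = 0.201) and Ctsz by 0.95 (adjusted p = 0.369), and none of them passed.

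The number of summits, fitted over 10916 genes, set the genotypes apart at Ctsl, a result named after it was seen. In untreated cells every library had 1 summit in Ctsl. After R837 for 2 h WT libraries had 5 and 8 summits there, compared with 4 and 2 in KO. The 4 h libraries had 5 and 7 in WT beside 1 and 1 in KO, and the 6 h libraries 5 and 6 beside 2 and 1. In the lists as deposited, no treated KO library reached the number of any treated WT library. The KO lists at 4 h and 6 h were all longer than the WT lists of the same time. On the scale of log2(number + 1), KO was lower by −1.79 ± 0.29 at 4 h (SE; adjusted p = 0.0116, limma) and by −1.40 ± 0.29 at 6 h (SE; adjusted p = 0.0234, limma), where 0.183% and 0.275% of all genes were lower. At 4 h the 2 genotypes carried different codes, and at 6 h the same code. The difference at 2 h, −0.92 ± 0.29, did not pass (adjusted p = 0.587, limma). Over the 3 times it was −1.37 ± 0.17 (SE; adjusted p = 0.00117, limma; 0.311% of all genes lower), and it passed without each library in turn (adjusted p from 5.9e-04 to 0.00468). The difference of responses in this measure did not pass (adjusted p = 0.0881, limma). None of the other 9 genes passed between KO and WT in this measure. In the rank of the best summit Ctsl showed no such separation (−1.14 over the 3 times, adjusted p = 0.392, limma). The tests of summit number used the lists as deposited. In lists shortened to equal length, Ctsl had 4 and 6 summits in WT beside 1 and 2 in KO at 2 h. It had 3 and 2 in WT beside 0 and 1 in KO at 4 h, and 1 and 6 beside 1 and 1 at 6 h. The treated genotypes thus overlapped in these lists, and the part of list length was not tested.

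**Figure D4:**
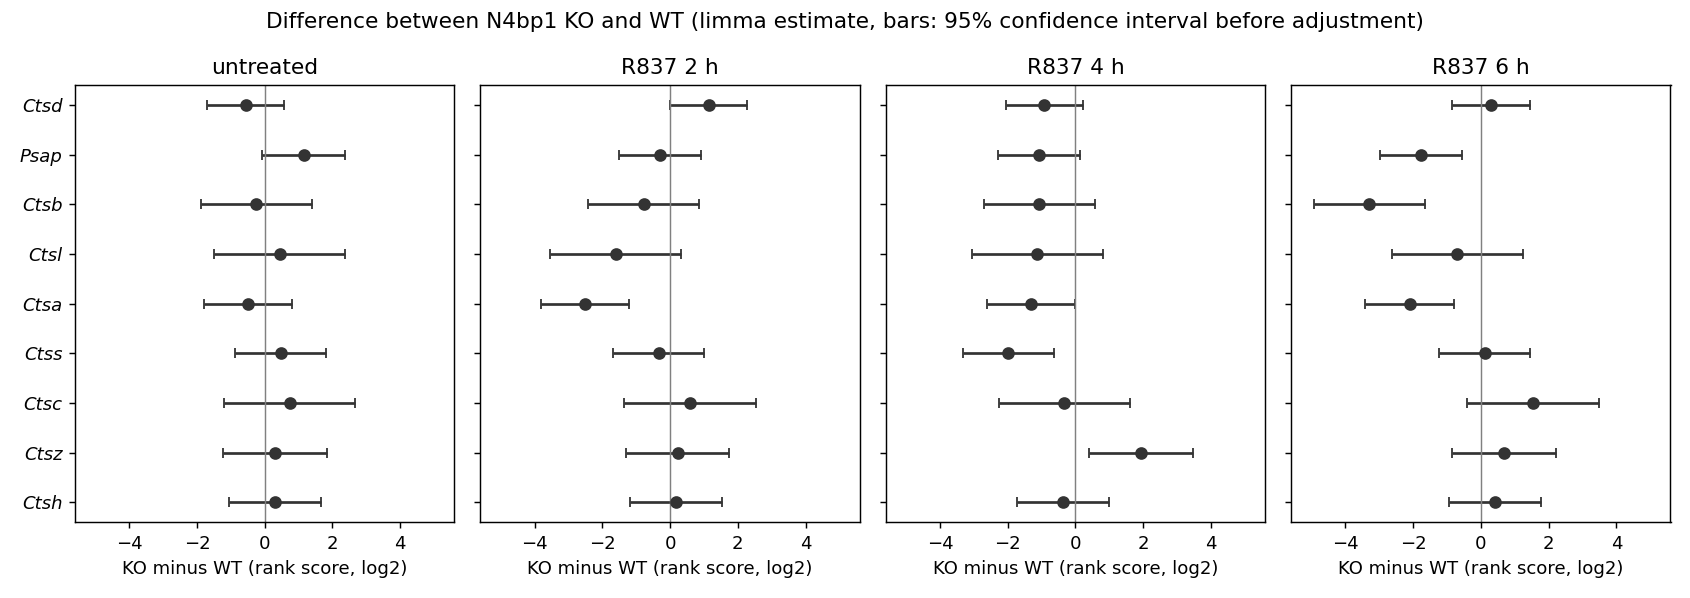
Difference in rank score between KO and WT (horizontal axis, log2 scale) for the 9 tested genes in untreated cells and at 3 R837 times; points are limma estimates from 2 libraries against 2 and bars are 95% confidence intervals before adjustment. The intervals of Ctsa lie below 0 at all 3 times as do those of Ctss at 4 h and of Ctsb and Psap at 6 h, those of Ctsd at 2 h and Ctsz at 4 h lie above 0, and no difference passed after adjustment over all genes.

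The difference between the R837 responses of the genotypes was tested directly. It passed for 0 of 9 genes by limma, where 0.932% of all genes passed, and 1 of 9 had an unadjusted p under 0.05, beside 10.8% of all genes. That gene was Psap, with a response lower in KO by −2.20 ± 0.65 (SE; adjusted p = 0.175, limma). For Ctsd the difference of responses was 0.73 (95% interval −0.59 to 2.04) and for Ctsc −0.14 (−2.38 to 2.10).

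Of the 8 genes of the group with a listed start, 3 held CACGTG in the 250 bases before a start: Ctsd, Ctsl and Ctsa. Among 21262 promoters of that length 6.63% held it. The 8 genes have 10 listed starts and were counted by gene, whereas shares of all promoters are counted by start, so the units differ. The motif is a palindrome and reads alike on both strands. In Ctsl it begins 236 bases before the listed start, which itself lies 252 bases inside the annotated span, and in Ctsa 12 bases before the second listed start. Ctsc, Ctsk, Ctss, Ctsz and Psap had none in these windows. TCATGTG, the M-box, was found in none of the 8, beside 2.62% of all promoters, with both strands searched. A match describes letters only, and binding was not measured.

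Other lysosomal genes from 4 lists were read in the same way for context. These lists too were chosen with earlier results of these data known. Their calls and counts are therefore a description, and nothing is read from their shares. Of 13 other cathepsin genes, 10 had no summit in any deposited list, Ctse, Ctso and Ctsw had a summit in 1, 5 and 7, and Ctsw, the only gene of the list that could be tested, differed by 0.06 (adjusted p = 0.522, limma). Of 8 genes for cysteine protease inhibitors and legumain, the protease that matures several cathepsins, 3 were tested and all 3 fell after R837 by limma, beside 29.4% of all genes: cystatin C (Cst3) by −2.21 ± 0.39, cystatin B (Cstb) by −1.47 ± 0.48 and Lgmn by −1.27 ± 0.30 (SE). With 1 rank per gene only Cst3 still passed, the change of Cstb turned positive when summits were counted (0.17), and that of Lgmn within 1 kb of starts (0.47). Of 36 tested genes for other lysosomal hydrolases and activators 17 fell and 2 rose, with a median of −0.79. The largest falls were those of Lipa, the acid lipase (−4.50 ± 0.47), Man2b1 (−3.26 ± 0.43) and Galc (−2.62), and the rises those of lysozyme (Lyz2, 2.46 ± 0.53, but −0.49 in counts of summits) and Acp2 (1.28 ± 0.43). The 17 falls include Galc, Manba and Man2b2, whose mean rank score in treated libraries was 0.0. They entered the tests through their untreated values, so nothing is read from their calls. Of 29 tested genes for lysosomal membrane proteins, sorting and regulators 13 fell and 2 rose, with a median of −0.56. Gpnmb fell most (−5.66 ± 0.31), then Lamtor1 (−3.07 ± 0.53, but 0.24 in counts of summits) and Laptm5 (−2.40), while Cln3 (1.92 ± 0.35) and M6pr, the cation-dependent mannose 6-phosphate receptor (1.55), rose. Laptm5, Npc1 and Slc36a1, among the 13 falls, had a mean rank score of 0.0 in treated libraries. That of M6pr was 0.0 in untreated libraries, although it had a summit in all 4 untreated lists as deposited. Nothing is read from the calls of these genes, which entered the tests through the higher side. Over all genes 5.77% rose and 29.4% fell, 35.1% in all. With summits of a single gene region alone, Lamtor1, Cln3 and Acp2 no longer passed. Acp2 did not pass either with lists as deposited (0.80, adjusted p = 0.19) or within 1 kb of starts (0.31, adjusted p = 0.72, limma). M6pr did not pass with 4000 summits (0.76, adjusted p = 0.0661), with 1 rank per gene (0.66, adjusted p = 0.135) or in counts of summits (0.29, adjusted p = 0.428, limma), and with summits of a single gene region its difference was 0.74. With 1 rank per gene the hydrolases had 8 falls and 2 rises of 27 tested and the membrane list 5 falls and 1 rise of 20.

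**Figure D5:**
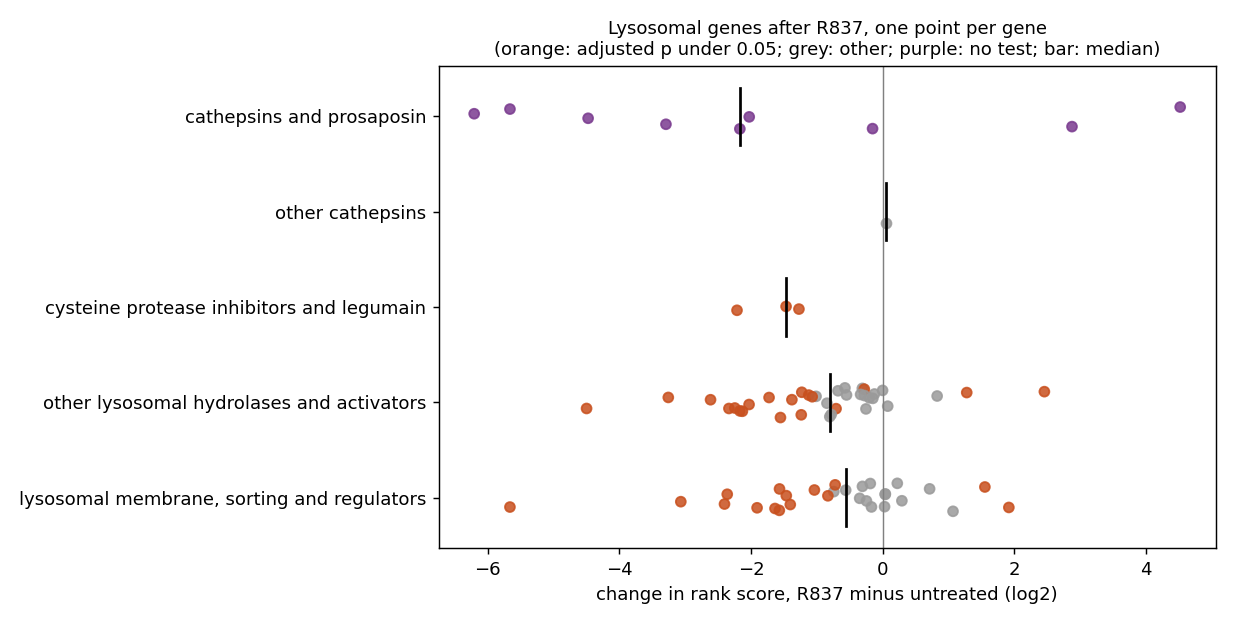
Change in rank score between R837 and untreated libraries (horizontal axis, log2 scale) of each measured gene of the group and of 4 lists of other lysosomal genes (vertical axis), with a bar at each median. Orange marks an adjusted p under 0.05, grey the other tested genes and purple the cathepsins and prosaposin, which were not tested in this comparison; they span −6.21 to 4.52.

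Across the 16 libraries the rank scores of Ctsd and Psap had a Pearson r of 0.86, and those of Ctsc and Ctsz also 0.86. The r between Ctsc and Psap was −0.88. Untreated and treated libraries lie apart in each of these pairs, and within the 12 treated libraries the same pairs had r of 0.05, 0.39 and −0.22, and the highest among treated libraries was 0.75 between Ctsb and Psap. Genes outside the group with the most similar profile over 16 libraries were Ucp2 (r 0.96), Cdh23, Arhgef10l, Cic and Tex22 for Ctsd. For Psap they were Cd84 (r 0.97), Gpnmb, Cd180, Trem2 and Jmjd1c, and for Ctsl Smg9 (r 0.92), Fzr1, Zfp36l1, Gm52006 and Cpeb2. The last of these lists holds 1 pair, Zfp36l1 and Gm52006, with identical scores. The gene region of Cdh23, named for Ctsd, overlaps that of Psap. Within the treated libraries the genes named for Ctsd had r of 0.72 (Cdh23) to 0.76 (Ucp2). Those named for Psap had r of 0.57 (Gpnmb) to 0.79 (Cd84), and those for Ctsl 0.54 (Cpeb2) to 0.64 (Smg9). All libraries share the shift of list composition between untreated and treated cells, and the values are a description.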

How the data were processed

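RNA polymerase II ChIP-seq summits from 16 libraries were used; the input DNA sample was not used here. The submitters' processing notes name GSNAP, MACS2 and the build GRCm38; versions, threshold and control are not given in the sources used here. The authors deposited, per library, 1 bp summits with a score on a −log10 scale, of p or q (the files do not say which); no counts are given, so depth is unknown and no counting interval can be given. Peak names carried no letter suffix, that is, 1 summit per peak.

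Summits were assigned to RefSeq spans (GRCm38.p6) of 21883 protein-coding genes with 1 kb on each side. Lists were shortened to 8394 summits and rank scores computed. Genes with a summit in at least 2 shortened lists (8473) were fitted with limma 3.58.1 (R 4.3.3) as means of 8 groups over all 16 libraries, with a trend in the prior variance and Benjamini-Hochberg adjustment over all 8473; an adjusted p under 0.05 was called. The fit was tested on simulated data. Ctsb and Ctsh have no listed start or strand, so their offsets were not read as distances from a start. The same replicate number did not pair libraries.

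The genes and all lists were chosen with earlier results of these data known. The text names all 10 genes, of each other list the 3 largest called rises and falls and any measured cathepsin or inhibitor, and for Ctsd, Psap and Ctsl the 5 genes with the highest r, leaving out genes that share a best summit. Values named outside this rule were chosen after they were seen. Alternatives changed the list length, the flank, the filter, the unit, the fit and each library in turn. KO versus WT in the 4 lists of other lysosomal genes is not reported here.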

Additional observations from a re-analysis of the deposited data

How the results depend on the processing

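Of the 8473 genes tested, 2977 were called for R837 versus untreated, 116, 6, 34 and 112 for KO versus WT in untreated cells and at 2, 4 and 6 h, 63 for KO versus WT over the 3 R837 times, 79 for the difference of responses and 704 for 6 h versus 2 h. Counts that moved by more than 1.5 times are given here in that order of comparisons, and the cause was not tested. With lists as deposited they were 5842 for R837, 55, 0, 74 and 840 for KO versus WT, 240 over 3 times, 11 for responses and 1067 for 6 h versus 2 h. When summits were counted they were 4538 for R837, 36, 240 and 1027 for KO versus WT at 2, 4 and 6 h, 662 over 3 times, 269 for responses and 1134 for 6 h versus 2 h. Within 1 kb of gene starts they were 1797 for R837, 7 and 60 for KO versus WT at 4 and 6 h, 16 over 3 times and 313 for 6 h versus 2 h. With 1 rank per gene they were 1045 for R837, 40 and 36 for KO versus WT untreated and at 2 h, and 1 for responses. With 4000 summits they were 1686 for R837 and 13 at 2 h. With genes in at least 4 lists they were 19, 3 and 12 for KO versus WT untreated, at 2 and at 4 h, and 2 for responses. With only the compared groups in the fit, where fewer libraries estimate the spread, they were 0, 1, 0 and 0 for KO versus WT, 15 over 3 times and 337 for 6 h versus 2 h; the response and R837 comparisons use all groups. The counts of 0 are from limma, and the same comparisons in the fit of all groups had 899, 437, 601 and 1120 genes at an unadjusted p under 0.05.

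Replicate numbers were not taken as pairs, since the differences between replicates of a group correlated by −0.11 to 0.18 between groups. With the replicate block the counts were 3 at 2 h, 24 for responses and 35 over 3 times, and no call of a cathepsin or prosaposin changed. Leaving out each library in turn gave 2502 to 3044 genes for R837, 75 to 392, 2 to 56, 21 to 72 and 56 to 585 for KO versus WT untreated and at 2, 4 and 6 h, 12 to 286 over 3 times, 9 to 350 for responses and 450 to 973 for 6 h versus 2 h.

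For the members, the differences after R837 changed sign when summits were counted for Ctsa (0.99), Ctsb (2.09), Ctsd (2.23) and Ctsl (1.10), and within 1 kb of starts for Ctsa (0.86). The small difference of Ctsh turned to 0.034 with 4000 summits, to 0.18 with 1 rank per gene, and to between −0.318 and 0.0093 without 1 library. The KO difference of Ctsa became 0.076 at 2 h and 0.16 at 4 h in counts of summits, and 1.05 at 2 h and 0.16 at 4 h within 1 kb of starts, and that of Ctsz became −2.74 at 4 h and −0.35 over 3 times within 1 kb of starts. The window within 1 kb of starts is set at the start of the gene span. It ends among the summits near the second listed start of Ctsa and just before the best KO summits of Ctsz at 4 h. Ctsb at 6 h passed in 4 settings, such as 1 rank per gene (adjusted p = 0.0333, limma), and without WT 6 h replicate 1 (adjusted p = 0.019) or KO 6 h replicate 1 (adjusted p = 0.0427). Ctsa passed at 2 h (−3.80, adjusted p = 0.018) and 6 h (−3.84, adjusted p = 0.00947, limma) with summits of a single gene region, a setting chosen after seeing the data. For Ctsa that setting removes the best summit of every treated KO library but keeps that of most treated WT libraries, so nothing is read from these calls. The depth of the libraries is unknown, and 2 libraries a group limit what could be detected between genotypes.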
